A study of Homo sapiens with 10 samples.

Results

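The NF-κB subunits and inhibitors described here are 10 genes, chosen by name among the 20263 genes of the deposited expression table. They are the subunit genes NFKB1, NFKB2, REL, RELA and RELB, the inhibitor genes NFKBIA, NFKBIB and NFKBIE, the atypical IκB gene NFKBIZ, and the feedback inhibitor TNFAIP3. All 10 were found in the table, and all 10 passed the filter on low values. Their transcripts were quantified by RNA-seq in PANC-1, an established human pancreatic carcinoma line that the labels call a pancreatic cancer cell. The LY group received 20 µM of LY for 24 h (5 libraries, LY-1 to LY-5), which the series title gives as lycorine, a plant alkaloid known to inhibit protein synthesis. The DMSO group received the vehicle (5 libraries, columns NC-1 to NC-5). The labels list 5 samples per group, whereas the series text speaks of 4. All 10 libraries come from this line. Whether those of 1 group were grown as separate cultures is not stated, so a p-value reflects the spread among these libraries only, and that spread may be technical.

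NF-κB is a family of transcription factors that work as dimers of Rel-homology subunits. RELA, RELB and REL carry an activation domain, whereas NFKB1 and NFKB2 are made as long precursors that are processed to shorter DNA-binding subunits. In resting cells IκB proteins hold the dimers in the cytoplasm until the IκB kinase complex marks the inhibitors for destruction by the proteasome. NFKBIA, TNFAIP3, NFKBIZ and several subunit genes are themselves known targets of NF-κB, which closes feedback loops, and constant NF-κB activity is well known in pancreatic carcinoma cells.

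Promoter stretches are shown first, since most of these genes are known to carry binding sites of the factor they encode or restrain. RefSeq promoter windows (GRCh38.p14) were held for 8 of the 10 genes, namely NFKB1, NFKB2, REL, RELA, NFKBIA, NFKBIB, NFKBIZ and TNFAIP3. Between them these genes have 14 windows. The motif searched was GGGNNTTTCC, a form of the κB site, on both strands and within the 250 bases before each start. It was spelled after the windows had been seen. It occurred in 7 of the 8 genes and in 8 of their 14 windows, and RELA had no match. Among all genes with a window, 2.12% held it (578 of 27305), and among all windows 1.73%. The wider κB consensus shares the GGG and CC ends and overlaps the searched motif in part. It occurred in 7 of the 8 genes, against 11.8% of all genes, and in 9 of their 14 windows. Every match of the searched motif in these genes also meets the consensus, so the 7 genes are the same. The consensus count is therefore no separate check on the motif spelled after the windows had been seen. A match describes letters and is not shown to be a bound site. Capitals mark the motif or its reverse complement, each line reads 5′ to 3′ along the strand of the gene, and stretches that overlap an annotated exon are kept to 30 bases.
NFKB1 (chr4:102501300-102501329, plus strand): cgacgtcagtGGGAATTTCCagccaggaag
NFKB2, the second start (chr10:102394490-102394519, plus strand): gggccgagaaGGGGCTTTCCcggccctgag
NFKB2, the third start (chr10:102395674-102395703, plus strand): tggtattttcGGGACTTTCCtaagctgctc
REL (chr2:60881518-60881547, plus strand): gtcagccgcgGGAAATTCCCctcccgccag
NFKBIA (chr14:35404786-35404865, minus strand): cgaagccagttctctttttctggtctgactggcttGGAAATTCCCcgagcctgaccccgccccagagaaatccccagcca
NFKBIB, the second start (chr19:38899931-38899960, plus strand): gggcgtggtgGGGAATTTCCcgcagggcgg
NFKBIZ (chr3:101827740-101827811, plus strand): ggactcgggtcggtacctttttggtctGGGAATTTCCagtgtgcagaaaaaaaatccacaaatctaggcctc
TNFAIP3 (chr6:137867188-137867217, plus strand): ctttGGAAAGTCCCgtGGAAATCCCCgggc

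Read in the direction of its motif, the match had the same 10 letters in NFKB1, REL, NFKBIA, NFKBIB and NFKBIZ. TNFAIP3 was the only one of the genes with a pair of matches before 1 start, beginning 67 and 55 bases before it. Most matches lay close to the start, from 21 bases before it in NFKB2 to 81 bases in NFKBIA, and the match of NFKBIZ lay 223 bases before it.

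**Figure D1:**
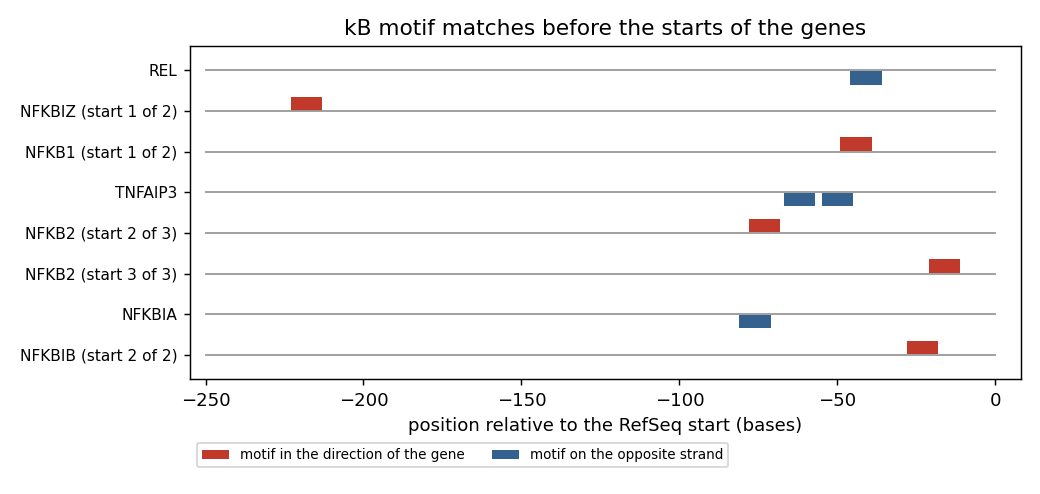
Positions of κB motif matches in the 250 bases before RefSeq starts of the NF-κB genes, in bases from the start, 1 line per start with a match. Bars above a line are matches in the direction of the gene and bars below it are matches on the opposite strand, and NFKBIZ is the gene with its match farthest from the start, at 223 bases.

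Libraries were compared on TPM, a relative transcript abundance that is normalised for transcript length and keeps no read totals, so the depth is unknown. Mitochondrially encoded genes took 6.43% to 14.9% of TPM in LY libraries and 12.2% to 37.5% in DMSO libraries, with the highest share in NC-2. Within LY, LY-1 (14.9%) and LY-2 (11.4%) had the highest shares. Epithelial keratins marked the line: KRT8 lay between 1182 and 1514 TPM in LY and between 1069 and 1601 TPM in DMSO, while the ductal keratin KRT7 stayed below 1 TPM in all 10 libraries. KRT18 lay between 941 and 1088 TPM in LY and between 664 and 833 TPM in DMSO, and KRT19 lay between 15.8 and 24.6 TPM in LY and between 123 and 166 TPM in DMSO, both without overlap. EPCAM, another epithelial marker, was low, between 0.767 and 1.76 TPM in LY and between 0.351 and 1.32 TPM in DMSO. The epithelial markers, mostly KRT8 and KRT18, summed to 2146 to 2627 TPM in LY and 1857 to 2600.4 TPM in DMSO. All 4 acinar and all 3 endocrine markers were listed at 0. Leukocyte markers, which matter for a pathway so active in immune cells, summed to 1.26 to 2.06 TPM in LY and 0.777 to 1.34 TPM in DMSO. The groups did not overlap in ITGAM (1.26 to 2.06 TPM in LY, 0.281 to 0.790 TPM in DMSO) or in CD14 (at most 0.113 TPM in LY, 0.340 to 0.559 TPM in DMSO), and the T cell marker CD3E was listed at 0. Endothelial markers summed to 2.74 to 3.32 TPM in LY and 0.0988 to 0.535 TPM in DMSO, with PECAM1 listed at 0. Nearly all of that sum was CDH5, at 2.68 to 3.22 TPM in LY and 0.0988 to 0.535 TPM in DMSO. Fibroblast markers summed to 27.7 to 37.7 TPM in LY and 68.9 to 115 TPM in DMSO, nearly all of it COL1A2, with DCN listed at 0. The part of these shifts in the results was not tested.

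Transcripts of 7 of the 10 NF-κB genes were higher in LY, 1 was lower and 2 did not pass the test. NFKBIB, NFKB2, NFKB1, RELB, RELA, TNFAIP3 and NFKBIE were the higher ones, NFKBIZ was lower, and REL and NFKBIA did not pass. The test was limma on log2(TPM + 1) with Benjamini-Hochberg adjustment over 11663 tested genes and a threshold of 0.05. In the same fit 39.8% of all tested genes were higher in LY, 24.9% were lower and 64.6% changed in either direction. Library values of the groups did not overlap in 8 of the 10 genes, the same 8 that passed, against 49.4% of all tested genes. The median log2 fold change of the 10 genes was 0.77, and that of all tested genes was 0.17. In each of the 8 genes the two-sided exact permutation test over 252 assignments gave 0.0079, the smallest p it can give, and 0.0161 when adjusted over all tested genes. Lack of overlap fixes this p, so the 49.4% of tested genes without overlap all share it. It adds nothing to the count of genes without overlap. In bulk samples such as these, fewer cells with a transcript and less of it per cell cannot be told apart.

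As deposited, TPM put the median of all genes at 0.17 on the log2 scale. Median-ratio scaling put it at 0.034, quantile normalization at 0.051, and upper-quartile scaling at -0.058, and it was 0.026 after removal of the mitochondrially encoded genes. Over all genes the calls numbered 4639 higher and 2899 lower as deposited, 3977 and 3756 under median-ratio scaling, 4055 and 3694 under quantile normalization, 3871 and 3812 without mitochondrially encoded genes, and 3452 and 4228 with upper-quartile scaling. Under each of these 4 alternatives the count of higher NF-κB genes was 7, and the count of lower ones was 2, since NFKBIA then passed. No NF-κB gene changed its direction under any of them.

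**Figure D2:**
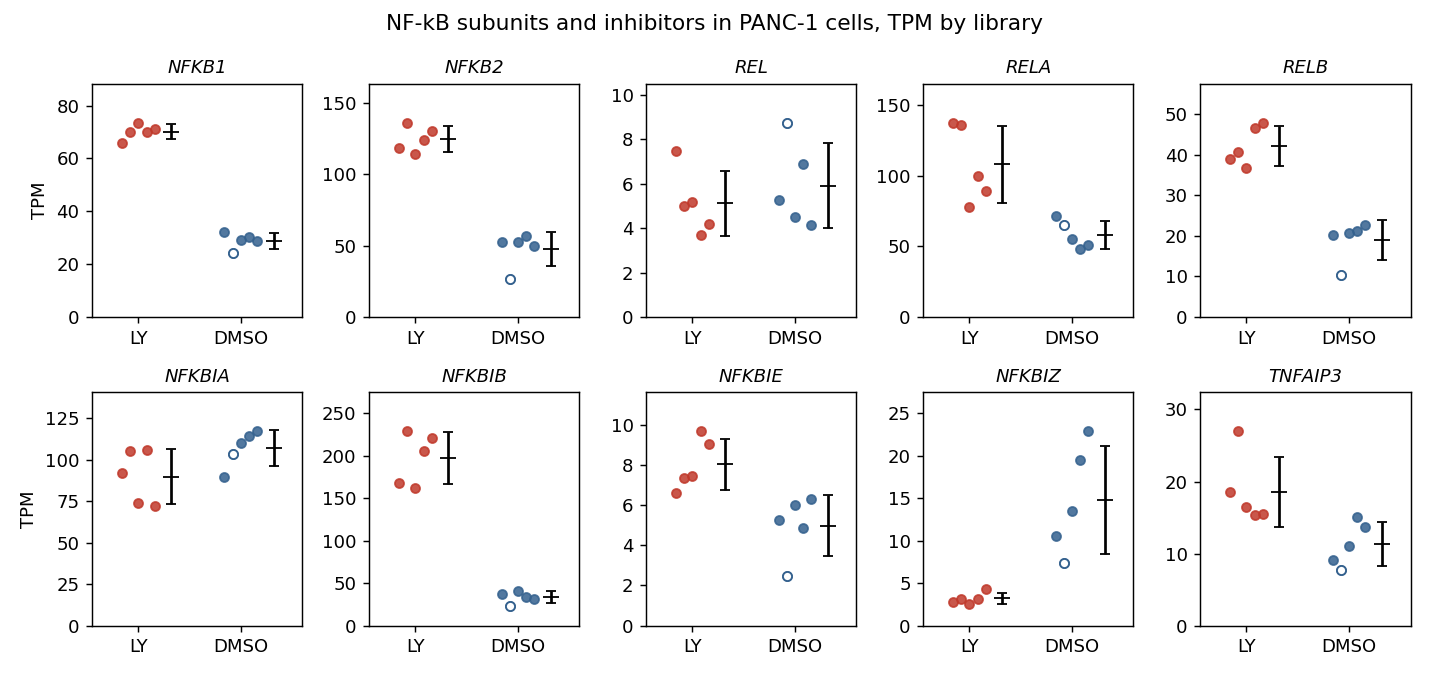
TPM of the 10 NF-κB genes in each library, 1 panel per gene, with LY in red on the left and DMSO in blue on the right. Points are libraries, open points mark NC-2, and bars give the mean ± SD of 5 libraries, and the groups overlap in the panels of REL and NFKBIA.

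NFKB1, which encodes the precursor of the classic DNA-binding subunit (ENSG00000109320, chromosome 4, 102501329 to 102617302), measured 65.7, 69.9, 73.6, 69.9 and 71.0 TPM in LY-1 to LY-5, against 32.02, 24.0, 28.99, 30.2 and 28.7 TPM in NC-1 to NC-5. The LY libraries lay close together, and the lowest of them was 33.7 TPM above the highest DMSO library. NFKB1 was higher in LY by 1.26 ± 0.092 as a log2 fold change (± SE, limma adjusted p = 3.18e-07), and by 1.09 relative to the median of all genes. Its coefficient of variation was 4.03% in LY and 10.3% in DMSO.

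NFKB2, the precursor of the DNA-binding subunit of the non-canonical pathway (ENSG00000077150, chromosome 10, 102394110 to 102402529), measured 118, 136, 114, 124 and 130.2 TPM in LY-1 to LY-5. The DMSO libraries NC-1 to NC-5 had 52.3, 26.4, 52.8, 56.8 and 49.6 TPM. NC-2 stood below the other DMSO libraries, and every LY library exceeded every DMSO library. NFKB2 was higher in LY by 1.41 ± 0.18 (limma adjusted p = 2.77e-05), or by 1.22 without NC-2.

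RELB, the partner of processed NFKB2 in the non-canonical pathway (ENSG00000104856, chromosome 19, 45001430 to 45038198), measured 38.8, 40.6, 36.8, 46.7 and 47.9 TPM in LY-1 to LY-5, against 20.1, 10.3, 20.6, 21.3 and 22.7 TPM in NC-1 to NC-5. As for NFKB2, NC-2 was the lowest library, and the other DMSO libraries lay within 20.1 to 22.7 TPM. RELB was higher in LY by 1.15 ± 0.19 (limma adjusted p = 0.000183), or by 0.96 without NC-2.

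RELA, the activating subunit of the most common NF-κB dimer (ENSG00000173039, chromosome 11, 65653596 to 65663094), measured 138, 136, 77.8, 99.99 and 89.3 TPM in LY-1 to LY-5. The DMSO libraries NC-1 to NC-5 had 71.6, 65.2, 55.2, 48.4 and 50.7 TPM. The groups did not overlap, but LY-1 and LY-2, the LY libraries with the highest mitochondrial shares, stood above the others, and the part of that share was not tested. RELA was higher in LY by 0.86 ± 0.17 (limma adjusted p = 0.000958). With NC-2, LY-1 and LY-2 all left out, an alternative chosen after the data were seen, the log2 fold change of RELA was 0.66 (limma adjusted p = 0.00323).

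REL, the subunit best known from lymphoid cells (ENSG00000162924, chromosome 2, 60881521 to 60931610), measured 7.499, 5.01, 5.16, 3.70 and 4.18 TPM in LY-1 to LY-5, against 5.25, 8.76, 4.52, 6.91 and 4.14 TPM in NC-1 to NC-5. It had the lowest level of the 5 subunits in both groups, and the groups overlapped. The log2 fold change of REL was -0.17 with a 95% interval from -0.61 to 0.27 (limma adjusted p = 0.484), so no difference was detectable with 5 libraries per group, though one within this interval is possible. In NC-2 REL was at its highest, whereas NFKB1, NFKB2, RELB, NFKBIB, NFKBIE, NFKBIZ and TNFAIP3 were at their lowest among the DMSO libraries. The non-coding genes AC010733.2 and RNU4-51P overlap REL on the same strand, by 5702 and 140 bases. Neither is in the expression table, and their part in the level of REL was not tested.

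NFKBIB, which encodes IκBβ (ENSG00000104825, chromosome 19, 38899700 to 38908893), moved the most of the 10 genes. It measured 168, 229, 162, 206 and 221 TPM in LY-1 to LY-5, against 37.3, 22.6, 41.1, 33.9 and 31.8 TPM in NC-1 to NC-5. The mean was 5.91-fold higher in LY (197 ± 30.5 TPM) than in DMSO (33.3 ± 6.96 TPM, SD, n = 5 each), and the lowest LY library was 121 TPM above the highest DMSO library. NFKBIB was higher by 2.54 ± 0.16 on the log2 scale (limma adjusted p = 1.12e-07), with a range of 2.28 to 2.62 over all alternatives. NFKBIB overlaps SIRT2, on the opposite strand, by 163 bases, and whether the counting used strand is not given in the sources used here. SIRT2, a deacetylase, averaged 60.5 ± 7.23 TPM in LY and 53.5 ± 8.76 TPM in DMSO and did not pass the test (log2 fold change 0.18 ± 0.13, limma adjusted p = 0.249).

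NFKBIA, which encodes IκBα, the best-known inhibitor and a rapid target of NF-κB (ENSG00000100906, chromosome 14, 35401511 to 35404749), measured 92.2, 106, 74.2, 106 and 71.8 TPM in LY-1 to LY-5. The DMSO libraries NC-1 to NC-5 had 89.6, 104, 110.1, 114 and 117 TPM. The groups overlapped, and as deposited NFKBIA did not pass (log2 fold change -0.26 ± 0.13, 95% interval -0.55 to 0.028, limma adjusted p = 0.103). NFKBIA fell by 0.41 under median-ratio scaling (limma adjusted p = 0.0269), by 0.54 under quantile normalization (limma adjusted p = 0.00643), by 0.51 under upper-quartile scaling (limma adjusted p = 0.00846) and by 0.42 without mitochondrially encoded genes (limma adjusted p = 0.0300). With NC-2 left out under median-ratio scaling NFKBIA did not pass (log2 fold change -0.35, limma adjusted p = 0.0526). Its direction was downward in all alternatives, and its call thus depended on the scaling and, under median-ratio scaling, on NC-2.

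NFKBIE, which encodes IκBε (ENSG00000146232, chromosome 6, 44258166 to 44265788), was the least abundant of the IκB inhibitors. It measured 6.62, 7.36, 7.47, 9.67 and 9.04 TPM in LY-1 to LY-5, against 5.23, 2.47, 6.004, 4.88 and 6.28 TPM in NC-1 to NC-5. The groups did not overlap, but only 0.341 TPM lay between them. NFKBIE was higher in LY by 0.63 ± 0.19 (limma adjusted p = 0.0122), and without NC-2, its lowest library, by 0.45 (limma adjusted p = 0.00661).

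NFKBIZ encodes IκBζ, a nuclear IκB protein that is known to co-activate a subset of NF-κB targets (ENSG00000144802, chromosome 3, 101827991 to 101861022). It measured 2.80, 3.15, 2.58, 3.13 and 4.37 TPM in LY-1 to LY-5, against 10.5, 7.34, 13.5, 19.5 and 22.9 TPM in NC-1 to NC-5. Every LY library lay below every DMSO library, and the DMSO libraries spread more widely, with coefficients of variation of 21.6% in LY and 43.2% in DMSO. NFKBIZ was the only one of the 10 genes that passed as lower under the TPM as deposited, by 1.82 ± 0.25 on the log2 scale (limma adjusted p = 5.55e-05). The ratio of means was 4.60 in favour of DMSO, and the log2(TPM + 1) scale understates the change of genes this low.

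TNFAIP3, the ubiquitin-editing enzyme that shuts off NF-κB signalling and is also called A20 (ENSG00000118503, chromosome 6, 137867188 to 137883312), measured 18.5, 27.0, 16.5, 15.4 and 15.5 TPM in LY-1 to LY-5. The DMSO libraries NC-1 to NC-5 had 9.09, 7.65, 11.1, 15.1 and 13.7 TPM. Only 0.275 TPM lay between the groups, and LY-2 stood above the other LY libraries. TNFAIP3 was higher in LY by 0.67 ± 0.20 (limma adjusted p = 0.00956), and by 0.54 without LY-2 (limma adjusted p = 0.0221). It was the 1 NF-κB gene that lost its call with those 3 libraries, NC-2, LY-1 and LY-2, left out (log2 fold change 0.37, limma adjusted p = 0.0654). An antisense gene overlaps it by 1046 bases on the opposite strand and is not analysed here.

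**Figure D3:**
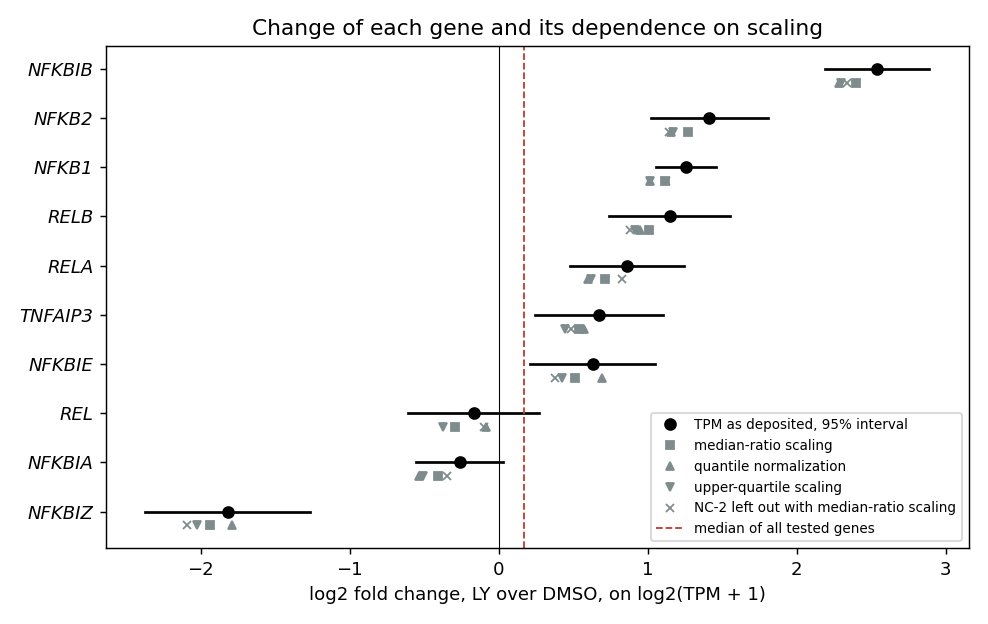
Log2 fold change of each NF-κB gene, LY over DMSO, on log2(TPM + 1), with the 95% interval of the limma fit in black and, in grey, the values under quantile normalization, upper-quartile scaling, and median-ratio scaling with and without NC-2. The dashed line is the median of all tested genes at 0.17, and grey points of NFKBIA lie left of its black point.

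The makeup of the NF-κB transcripts was compared within each library, which no scaling by 1 factor per library can change, and is given as a description. NFKBIB took 62.9%, 67.0%, 66.5%, 64.1% and 73.2% of the summed TPM of the 3 IκB inhibitors in LY-1 to LY-5, against 28.2%, 17.5%, 26.1%, 22.2% and 20.5% in NC-1 to NC-5. NFKBIA took 23.8% to 34.6% in LY and 67.8% to 80.5% in DMSO. The leading IκB transcript was thus NFKBIB in all 5 LY libraries and NFKBIA in all 5 DMSO libraries. The ratio of NFKBIB to NFKBIA ran from 1.82 to 3.07 in LY and from 0.218 to 0.416 in DMSO.

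Among the subunits, RELA and NFKB2 together held most of the subunit TPM in every library, with RELA at 25.3% to 37.4% in LY and 29.6% to 48.4% in DMSO, and NFKB2 at 32.2% to 38.0% in LY and 19.6% to 34.7% in DMSO. The shares of NFKB1, NFKB2, RELA and RELB overlapped between the groups. The share of REL was 1.08% to 2.04% in LY and 2.66% to 6.501% in DMSO, without overlap. The ratio of NFKB2 to NFKB1 was 1.55 to 1.95 in LY and 1.10 to 1.88 in DMSO.

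Subunits summed to 350.1 ± 30.3 TPM in LY and 159.5 ± 16.7 TPM in DMSO, and the 3 IκB inhibitors to 295 ± 39.7 TPM in LY and 145 ± 13.7 TPM in DMSO (SD, n = 5 each). Neither sum overlapped between the groups. The ratio of the IκB sum to the subunit sum was 0.724, 0.881, 0.794, 0.933 and 0.881 in LY-1 to LY-5, against 0.729, 0.955, 0.969, 0.935 and 0.997 in NC-1 to NC-5. This ratio overlapped through NC-1 alone, which had nearly the same value as LY-1. The other DMSO libraries lay above every LY library, the lowest of them (NC-4, 0.935) only just above LY-4 (0.933). The sums were formed after the values of single genes had been seen and were not tested.

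**Figure D4:**
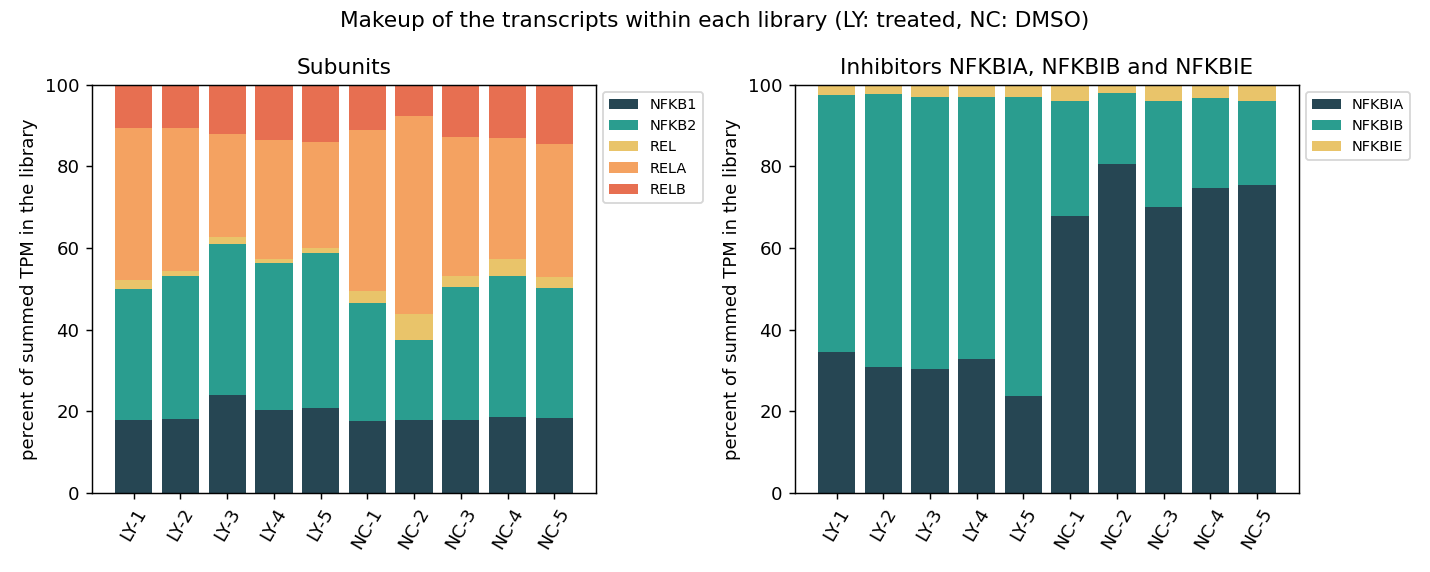
Share of each gene in the summed TPM of the 5 subunits (left) and of the 3 IκB inhibitors (right), in percent, 1 bar per library with LY left of DMSO (NC). NFKBIB holds 62.9% to 73.2% of the inhibitor TPM in LY bars and 17.5% to 28.2% in DMSO bars.

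By level, on the TPM scale, NFKBIB was first in LY at 197 ± 30.5 TPM, and its range did not overlap that of NFKB2, next at 125 ± 8.93 TPM. NFKB2, RELA, NFKBIA and NFKB1 followed in that order with overlapping ranges between neighbours. RELB (42.2 ± 4.88 TPM) and TNFAIP3 (18.6 ± 4.85 TPM) were each separated from their neighbours. NFKBIE, REL and NFKBIZ came last, each overlapping the next. In DMSO NFKBIA was first at 107 ± 10.96 TPM and did not overlap RELA, next at 58.2 ± 9.86 TPM. RELA, NFKB2, NFKBIB and NFKB1 followed with overlapping neighbours, and then RELB, NFKBIZ, TNFAIP3, REL and NFKBIE, each of which overlapped the next. NFKBIZ ranked last in LY and the seventh in DMSO.

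NFKBIB was both the gene of largest change and the most abundant of the 10 over all libraries. The genes with the pattern most like it over the 10 libraries, by Pearson's r of log2(TPM + 1), were RBM10, ELL and CDC42EP2, each with r = 0.997. RBM10, an RNA-binding splicing regulator, averaged 277 ± 29.4 TPM in LY and 108 ± 13.1 TPM in DMSO. ELL, a transcription elongation factor, averaged 53.5 ± 4.42 TPM in LY and 14.6 ± 1.98 TPM in DMSO, and CDC42EP2, an effector of the GTPase CDC42, averaged 38.0 ± 4.24 TPM in LY and 10.3 ± 1.55 TPM in DMSO. The libraries fall into the 2 groups, so these values mostly describe the difference between LY and DMSO.

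The IκB kinases, the kinases upstream of them and their adaptors were higher in LY in 7 of 12 tested genes, lower in 2 and did not pass in 3, with a median log2 fold change of 0.45. Of all tested genes 39.8% were higher and 24.9% lower. The higher ones were CHUK and IKBKG of the IκB kinase complex, MAP3K14 and MAP3K7 upstream of it, the adaptors TAB2 and TANK, and TBK1. MAP3K7 passed narrowly, with overlapping groups (log2 fold change 0.41 ± 0.16, limma adjusted p = 0.0396). IKBKB of the same complex did not pass (log2 fold change 0.10 ± 0.16, limma adjusted p = 0.592), nor did TAB1 and TAB3. TAB2, which links the kinase MAP3K7 to ubiquitin chains and was the most abundant of the list, averaged 69.2 ± 19.5 TPM in LY and 34.97 ± 9.38 TPM in DMSO (log2 fold change 0.96 ± 0.20, limma adjusted p = 0.00121), with overlapping groups. IKBKE, a non-canonical IκB kinase, lay between 0.153 and 0.545 TPM in LY and between 5.64 and 13.8 TPM in DMSO. MAP3K8, a kinase held by the NFKB1 precursor, averaged 0.532 ± 0.205 TPM in LY and 2.78 ± 0.698 TPM in DMSO. IKBKE and MAP3K8 are the 2 lower kinases, and both were below 1 TPM in every LY library, so they passed the filter on low values through DMSO alone and their count is a description, not support.

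Genes of IκB degradation, and other nuclear regulators of NF-κB, were higher in LY in 6 of 12 tested genes, lower in 2 and did not pass in 4 (median log2 fold change 0.35). The shares over all tested genes were 39.8% higher and 24.9% lower. With quantile normalization or upper-quartile scaling the higher ones numbered 3. Of all tested genes 4055 and 3452 were higher under these scalings, against 4639 as deposited. The 2 that passed as lower are atypical IκB genes, like NFKBIZ. BCL3 averaged 10.7 ± 2.69 TPM in LY and 24.3 ± 3.86 TPM in DMSO (log2 fold change -1.12 ± 0.16), and NFKBID averaged 8.57 ± 1.57 TPM in LY and 18.1 ± 2.64 TPM in DMSO (-0.999 ± 0.14). Neither BCL3 nor NFKBID overlapped between the groups. NKRF, a repressor of NF-κB targets, rose by 0.998 ± 0.098. SKP1, a core subunit of the ubiquitin ligase that recognises marked IκB proteins and the most abundant of the list, did not pass as deposited (log2 fold change -0.23 ± 0.15, limma adjusted p = 0.21). SKP1 passed, downward, with median-ratio, quantile and upper-quartile scaling, without mitochondrially encoded genes, without NC-2 alone, and without NC-2 under median-ratio scaling (-0.34 without NC-2, limma adjusted p = 0.0352).

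Receptors, adaptors and ubiquitin ligases upstream of the kinases were higher in LY in 10 of 21 tested genes, lower in 5 and did not pass in 6, with a median log2 fold change of 0.13. These counts lay near the shares over all tested genes, 39.8% higher and 24.9% lower. Under upper-quartile scaling 8 were higher and 9 lower, and under median-ratio scaling without NC-2 9 were higher and 8 lower. Of all 11663 tested genes, 3452 were higher and 4228 lower under the former, and 4231 and 4004 under the latter. TLR3 did not pass the filter on low values. BIRC3 and BIRC2, ubiquitin ligases that keep the non-canonical pathway low and join the TNF receptor complex, led the list. BIRC3 averaged 70.9 ± 15.9 TPM in LY and 13.7 ± 1.73 TPM in DMSO (log2 fold change 2.26 ± 0.16, limma adjusted p = 2.91e-07), and BIRC2 averaged 111 ± 18.5 TPM in LY and 24.5 ± 3.83 TPM in DMSO (2.13 ± 0.14). CD40, a receptor of the TNF family, fell by 1.48 ± 0.27. The lymphotoxin receptor gene LTBR, the most abundant, rose by 0.45 ± 0.11 as deposited (limma adjusted p = 0.00409), but did not pass with quantile normalization (0.20, limma adjusted p = 0.126) or upper-quartile scaling (0.20, limma adjusted p = 0.105).

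Partners of TNFAIP3 and other deubiquitinases that restrain NF-κB were higher in LY in 6 of 9 tested genes, and 3 did not pass, with a median log2 fold change of 0.91. Over all tested genes 39.8% were higher and 24.9% lower. By limma 0 were lower, also at an unadjusted p under 0.05. TNIP3 did not pass the filter on low values. CYLD, a deubiquitinase and tumour suppressor, averaged 75.5 ± 4.42 TPM in LY and 13.6 ± 1.18 TPM in DMSO (log2 fold change 2.39 ± 0.089, limma adjusted p = 7.02e-09), the largest change of this list. OTUD7B, a deubiquitinase known to act on TRAF3, rose by 1.81 ± 0.13. TAX1BP1, an adaptor of TNFAIP3 and the most abundant of the list, averaged 201 ± 17.95 TPM in LY and 75.99 ± 9.39 TPM in DMSO (1.40 ± 0.10).

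Known target genes of NF-κB went both ways: of 22 tested, 9 were higher in LY, 8 were lower and 5 did not pass, with a median log2 fold change of -0.12 against 0.17 for all tested genes. The other 14 of 36 listed targets, among them IL6, TNF, CCL20 and PTGS2, did not pass the filter on low values. Of the higher ones, IL1B and BCL2A1 were below 1 TPM in every DMSO library and passed that filter through LY alone. IL1A, an epithelial alarm cytokine, averaged 16.9 ± 2.84 TPM in LY and 1.38 ± 0.851 TPM in DMSO (log2 fold change 2.96 ± 0.20, limma adjusted p = 2.18e-07). CXCL8, the neutrophil-attracting chemokine interleukin 8, averaged 345 ± 36.5 TPM in LY and 74.0 ± 36.7 TPM in DMSO (2.33 ± 0.27). IRF1, a transcription factor of the interferon response, fell by 1.71 ± 0.22. CXCL1, a chemokine close to CXCL8 and the most abundant of the list over all libraries, rose by 0.33 ± 0.11 as deposited (limma adjusted p = 0.0196), but lost its call with median-ratio scaling (limma adjusted p = 0.231) and in 7 other alternatives. The shares higher and lower in these lists are to be read against the 39.8% and 24.9% of all tested genes.

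**Figure D5:**
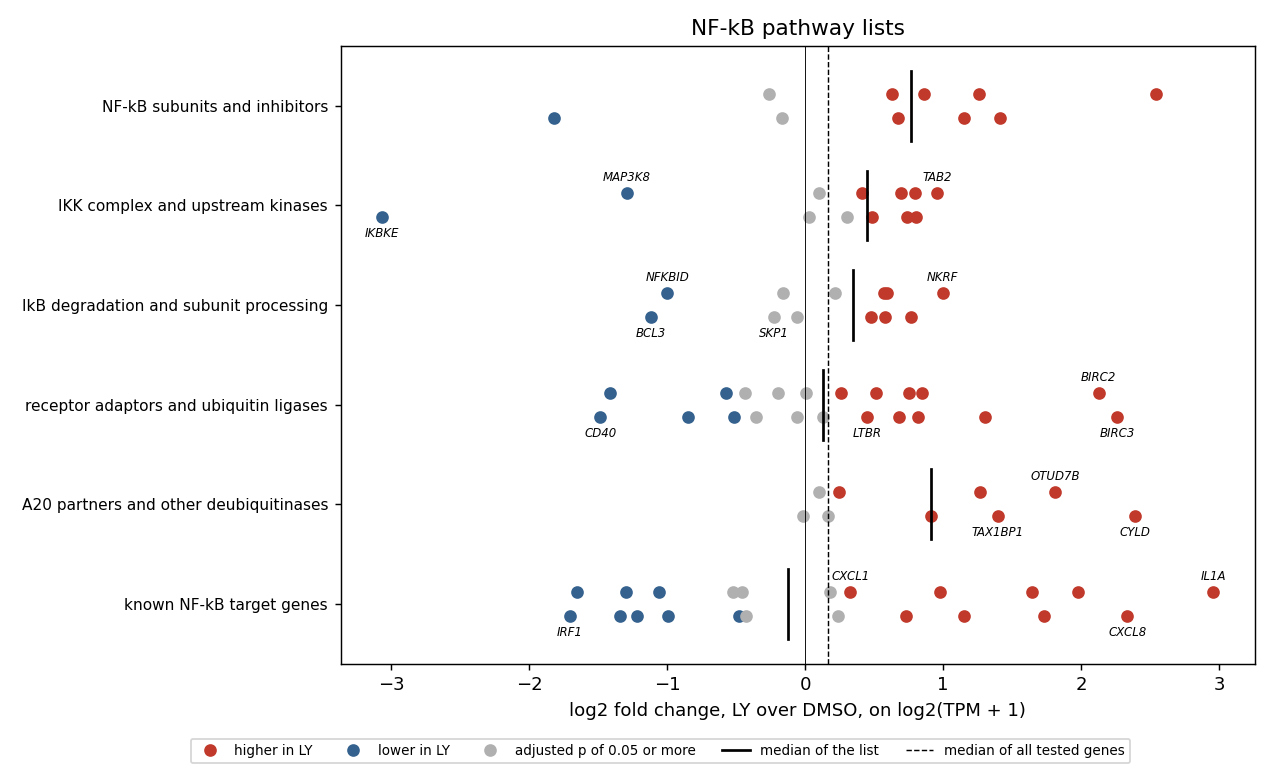
Log2 fold change, LY over DMSO, of the tested genes of each NF-κB pathway list, 1 point per gene, red where higher in LY, blue where lower and grey where the limma adjusted p was 0.05 or more. Vertical bars are list medians, from -0.12 for the known targets to 0.91 for the joint list of TNFAIP3 partners and other deubiquitinases. The dashed line is the median of all tested genes at 0.17.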

How the data were processed

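RNA sequencing of PANC-1 cells gave 10 libraries, 5 LY and 5 DMSO. Per the labels' protocols RNA was taken with a column kit (the series text names Trizol) and libraries were made with a dual-mode mRNA kit. The values are TPM as the authors deposited them, in 1 table. The submitters' processing notes list the builds GRCm38, mm10 and hg38 without saying which served here, and aligner, counter, annotation and strand setting were not given in the sources used here. Because TPM drops the read totals, neither depth nor counting intervals can be stated. The titles of the DMSO samples differ from the NC column names, so NC columns were assigned to DMSO as a group.

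Gene IDs were matched to symbols by the names table (20148 of 20263) or GENCODE 29 (76), and 39 had none. Coordinates of genes are those of GENCODE 29 (GRCh38), and those of promoters come from RefSeq (GRCh38.p14). Genes that reached a TPM of 1 in 5 or more of the 10 libraries were fitted with limma 3.58.1 (R 4.3.3, trended moderation) on log2(TPM + 1) with group as the only term, and p-values were Benjamini-Hochberg adjusted over all of them (threshold 0.05). Fold changes are LY over DMSO on that scale, which understates changes of low genes, and are given ± SE. Single genes also got a two-sided exact permutation test. The limma fit was tested on simulated data. Named from each pathway list were the 2 changed genes of largest change, the largest opposite change and the most abundant gene. For NFKBIB the 3 genes most correlated with it were named. The 10 genes and the lists were chosen with earlier results of these data known. Alternatives were other pseudocounts, filters, scalings and moderation, and libraries left out.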

Additional observations from a re-analysis of the deposited data

Results flagged for a closer look

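A library stood apart from the other 4 of its group in 4 of 22 groups of values checked, by the gap to its nearest neighbour as a share of the range of the group (Dixon's critical value 0.71). Chance alone flags about 1 group in 20. TNFAIP3 was at 27.0 TPM in LY-2, against 15.4 to 18.5 TPM in the other LY libraries. NFKB2 was at 26.4 TPM in NC-2, against 49.6 to 56.8 TPM in the other DMSO libraries. RELB was at 10.3 TPM in NC-2, against 20.1 to 22.7 TPM in the other DMSO libraries. NFKB1, NFKBIB, NFKBIE, NFKBIZ and TNFAIP3 were also lowest in NC-2 among the DMSO libraries, without being flagged. Mitochondrially encoded genes took 37.5% of TPM in NC-2, and their part in these low values was not tested. The ratio of summed IκB TPM to summed subunit TPM was 0.729 in NC-1, against 0.935 to 0.997 in the other DMSO libraries.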

How the results depend on the processing

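The log2 fold changes of the 10 NF-κB genes kept their direction under every alternative run, and apart from NFKBIA and TNFAIP3 each kept its side of the threshold. The lower NF-κB genes numbered 2, not 1, with median-ratio, quantile or upper-quartile scaling and without mitochondrially encoded genes, where NFKBIA passed at -0.41, -0.54, -0.51 and -0.42, in that order. Without NC-2, LY-1 and LY-2, chosen after the data were seen, TNFAIP3 was at 0.37 and did not pass. The higher genes of IκB degradation numbered 3, not 6, with quantile or upper-quartile scaling. Higher calls over all tested genes numbered 4055 and 3452 there, against 4639 as deposited. The lower receptor and adaptor genes numbered 9 with upper-quartile scaling and 8 with median-ratio scaling without NC-2, not 5. Lower calls over all tested genes numbered 4228 and 4004 there, against 2899 as deposited. With a filter at TPM 5 the lower kinases numbered 1, not 2, because MAP3K8 was no longer tested. The cause of the other shifts was not tested. Leaving out 1 library at a time left 7 NF-κB genes higher and 1 lower each time, with log2 fold changes of 1.20 to 1.30 for NFKB1, 1.22 to 1.49 for NFKB2, -0.29 to -0.03 for REL, 0.77 to 0.97 for RELA, 0.96 to 1.22 for RELB, -0.32 to -0.19 for NFKBIA, 2.41 to 2.62 for NFKBIB, 0.45 to 0.71 for NFKBIE, -2.02 to -1.64 for NFKBIZ and 0.54 to 0.78 for TNFAIP3. Over all genes it gave 4400 to 4607 higher and 2633 to 3610 lower calls. No paired analysis was possible because the NC columns cannot be tied to numbered DMSO samples, so the replicate number was not run as a block. TPM is a share of each library, and total RNA per cell was not measured.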

Other observations

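Among the DMSO libraries, NC-4 and NC-5 were the highest for NFKBIZ, TNFAIP3, CXCL8 and IL32, genes picked out after their values were seen and not tested. NFKBIZ was at 19.5 TPM in NC-4 and 22.9 TPM in NC-5, against 7.34 to 13.5 TPM in the other DMSO libraries. TNFAIP3 was at 15.1 TPM in NC-4 and 13.7 TPM in NC-5, against 7.65 to 11.1 TPM in the others. CXCL8 was at 103 TPM in NC-4 and 124 TPM in NC-5, against 41.9 to 52.1 TPM in the others, and IL32, a cytokine gene, was at 7.01 TPM in NC-4 and 6.68 TPM in NC-5, against 2.05 to 4.67 TPM in the others. Further listed targets, among them CXCL2, IL1A, IER3, CFLAR and SDC4, were also highest in NC-4 and NC-5 among the DMSO libraries. Other targets had another order. IRF1 was lowest in NC-5 (16.8 TPM) and highest in NC-3 (36.3 TPM). CXCL1 was highest in NC-1 (203 TPM), and CCL2 and TNFAIP2 were highest in NC-3. In LY libraries CXCL8 lay between 296 and 387 TPM while NFKBIZ lay between 2.58 and 4.37 TPM.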
